A study of Mus musculus with 2 samples.

Results

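The genes examined here move ions, bicarbonate, chloride and calcium across the enamel-forming epithelium of the tooth. They are *Slc24a4*, *Slc4a2*, *Slc4a4*, *Slc26a4*, *Slc26a7*, *Cftr*, *Car2*, *Stim1*, *Orai1* and *Wdr72*, and their probes were found by gene name in the annotation of an Agilent mouse expression array. These 10 genes have 15 probes, out of 55679 probes and 21244 genes with a reference symbol. RNA came from incisors of wild-type mice and of mice lacking the transcription factor Sox21 (*Sox21* KO), with 1 array for each genotype. The labels give postnatal day 0 for both samples, whereas the study's methods give day 1 for its tooth germs. The wild-type mice of the study were C57BL/6J, and its *Sox21* KO mice were a gift whose strain is not given in the sources used here. No source used here gives the number of mice behind each sample. With 1 array per genotype there is no replicate check within these samples, so no test was run on any difference below. Precision is limited by having 1 array a side. The study also lists normalized values of another wild-type tooth germ, which it compared with skin and which is not among these samples. Because the RNA is from bulk tissue, a smaller number of cells of a type and less RNA per cell cannot be told apart in any of these values.

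Enamel is laid down as a protein matrix by secretory ameloblasts and is then hardened by maturation ameloblasts, which supply calcium and phosphate and buffer the acid that growing apatite crystals release. Calcium enters ameloblasts mainly through store-operated channels, in which the sensor protein Stim1 of the endoplasmic reticulum opens the pore protein Orai1, and it leaves toward the enamel through the potassium-dependent sodium/calcium exchanger encoded by *Slc24a4*. Carbonic anhydrase 2, encoded by *Car2*, makes bicarbonate, which is moved by the anion exchanger of *Slc4a2*, the sodium bicarbonate cotransporter of *Slc4a4* and the anion exchangers of *Slc26a4* and *Slc26a7*. *Cftr* encodes a chloride channel, and *Wdr72* encodes a protein needed for vesicle traffic in maturation ameloblasts. Human mutations of *SLC24A4* and *WDR72* cause amelogenesis imperfecta, a group of inherited enamel defects.

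Each value below is the brightness of 1 spot that carries a probe of 60 bases, so the probes are shown first for the genes on which the results turn. *Slc24a4* and *Slc26a4* stood farthest from equal signals on the arrays and have 1 probe each, whose first 30 bases are printed in lower case. The *Slc24a4* probe lies on chromosome 12 from 103504900 to 103504959 (mm9, + strand), and the *Slc26a4* probe on chromosome 12 from 32204766 to 32204825 (mm9, - strand).
Slc24a4 probe: cagccgttatttgagcagctccacagactc
Slc26a4 probe: aggaaggactaatcacagagattcctgact
The pair of bright *Slc4a4* probes is shown whole because the probes overlap and are therefore not separate measurements of the gene. The second starts 12 bases after the first, and the 48 bases that they share are in capitals (chromosome 5, 89663826 to 89663885 and 89663838 to 89663897, mm9, + strand).
Slc4a4 first probe: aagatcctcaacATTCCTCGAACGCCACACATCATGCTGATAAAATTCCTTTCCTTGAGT
Slc4a4 second probe: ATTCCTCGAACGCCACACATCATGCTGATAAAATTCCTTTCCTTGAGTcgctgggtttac
The *Cftr* probe, on chromosome 6 from 18270974 to 18271033 (mm9, + strand), gave the only other member signal that was lower by more than the scanner's error. It is shown with its last codon in capitals, a stop codon that closes a reading frame with no other stop in the probe.
Cftr probe: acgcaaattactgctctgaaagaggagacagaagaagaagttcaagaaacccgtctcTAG
The *Stim1* probes share 51 bases and the *Orai1* probes share none, while the *Wdr72* probes start at 74130576 and 73987444 on chromosome 9 (mm9).

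Processed signals, from which the scanner software had removed background, were scaled to the array's own 75th percentile, and this quotient is called the normalized signal. The percentiles were 268 (wild-type) and 276 (KO). Log2 ratios are *Sox21* KO minus wild-type, with an error propagated from the errors that the scanner software gives for the 2 signals. This error covers the spot and the array, not the animals. A gene was called measured when the same probe carried the mark of being well above background on each array. There were 13803 such genes, and each took the brightest such probe. Of the 10 transport genes, 9 were measured on both arrays and *Slc26a4* was well above background on the KO array alone. Of the 15 probes, 13 were well above background on both arrays, 0 carried an outlier mark and 0 were saturated. *Sox21* itself went from a normalized signal of 5.09 to 2.39 at one probe and from 1.07 to 0.375 at the other, log2 ratios of -1.09 and -1.51. Whether these probes lie in the deleted part of the gene is not given in the sources used here.

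**Figure D1:**
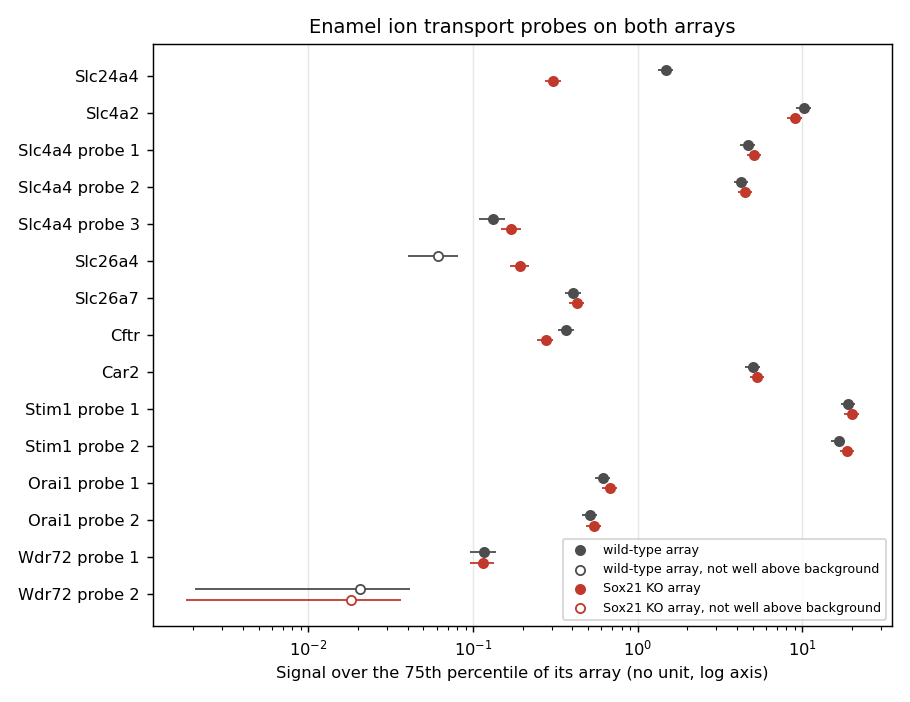
Normalized signal (log axis) of the 15 probes of the 10 transport genes on the wild-type array (grey) and the *Sox21* KO array (red), with bars for the error given by the scanner software; lower bars are drawn short where the error exceeds the signal. Open points are not well above background, and only *Slc24a4* and *Slc26a4* show points that stand clearly apart.

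*Slc24a4*, the calcium exchanger of the enamel-facing membrane, was 4.83-fold lower in *Sox21* KO incisor. The processed signal of its probe was 398 in wild-type (scanner error 40.2) and 84.8 in *Sox21* KO (error 9.92). After normalization these are 1.49 and 0.308, a log2 ratio of -2.27 with a scanner error of 0.22. Under a normal-exponential background correction, which also adds an offset of 50 to every signal, the log2 ratio was -1.62, still past 2-fold. The unprocessed spots differed in the same way. Their mean brightness was 407 over 48 pixels in wild-type and 115 over 44 pixels in *Sox21* KO, against local backgrounds of 23 and 21. Both spots were well above background, since the lowest signals so marked were 21.3 in wild-type and 19.5 in *Sox21* KO. Among the 13803 measured genes, *Slc24a4* had the 8th lowest log2 ratio. The study had listed *Slc24a4* as lower from these same arrays, so this value is not independent evidence of its direction. For the other wild-type tooth germ, the study lists a normalized *Slc24a4* value nearer to the *Sox21* KO value here than to the wild-type one. The wild-type level of this gene thus differed between samples of the study, which the scanner error does not cover. The source of that difference was not tested.

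Of the genes that supply and move bicarbonate, *Car2*, *Slc4a2* and *Slc4a4* differed little between the arrays. *Car2*, which catalyses the hydration of carbon dioxide, gave processed signals of 1339 in wild-type and 1469 in *Sox21* KO. Its log2 ratio was 0.09 with a scanner error of 0.20. *Slc4a2*, an exchanger of chloride for bicarbonate, had signals of 2731 and 2479, a log2 ratio of -0.18 with an error of 0.20. *Slc4a4*, which carries sodium and bicarbonate together, had signals of 1246 and 1405 at its brightest probe, the second of the pair printed above, a log2 ratio of 0.13 with an error of 0.20. The overlapping *Slc4a4* probe gave 1137 and 1241, a log2 ratio of 0.08. The third *Slc4a4* probe was dim, with signals of 35.5 and 47.2, and its log2 ratio of 0.37 had an error of 0.32. That probe has a G and C content of 15%, against 45% and 41.7% for the bright pair. For *Car2*, *Slc4a2* and the bright *Slc4a4* probes, the log2 ratio was smaller than its scanner error.

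The genes of chloride and anion exchange gave values on both sides of 0. *Cftr*, the chloride channel that is defective in cystic fibrosis, gave signals of 98.4 in wild-type and 75.9 in *Sox21* KO. This is a log2 ratio of -0.42 with a scanner error of 0.23, and of the measured genes 13.0% lay farther from 0. *Slc26a7*, an anion exchanger of ameloblasts, had signals of 109 and 118, a log2 ratio of 0.08 with an error of 0.22. *Slc26a4*, which encodes pendrin, an exchanger of chloride, iodide and bicarbonate, had a signal of 16.3 with a scanner error of 5.52 in wild-type incisor, below the scanner's mark. In *Sox21* KO its signal was 53.2 with an error of 7.08, and the probe carried the mark of being well above background. Taken as a bound against the lowest such signal of the wild-type array, the signal of *Slc26a4* in *Sox21* KO incisor was at least 2.43-fold higher. That bound leaves out the scanner errors of both signals, and within 1 such error the ratio could fall below it. The measured normalized signals of *Slc26a4* were 0.0609 and 0.193. For comparison, 449 of the 21244 genes (2.11%) were well above background on the KO array alone, and 57 of these 449 (12.7%) had a bound of at least 2-fold, 0.268% of all 21244 genes. The bound of *Slc26a4* became at least 1.35-fold under the normal-exponential correction with its offset of 50, below 2-fold.

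The calcium entry genes and *Wdr72* were close to equal on both arrays. *Stim1*, the calcium sensor of the endoplasmic reticulum, had signals of 5092 and 5514 at its brighter probe and 4442 and 5151 at the overlapping one, which are log2 ratios of 0.07 and 0.17. *Orai1*, the pore of the store-operated channel, had signals of 164 and 186 at one probe and 137 and 150 at the other, which are log2 ratios of 0.14 and 0.08. For each of these 4 probes, the scanner error of the log2 ratio lay between 0.20 and 0.21. *Wdr72* was dim, with signals of 31.3 and 31.9 at its brighter probe and a log2 ratio of -0.01 with an error of 0.35. The other *Wdr72* probe had 5.51 and 5.0. The 95th percentile of 308 negative-control spots was 5.99 in wild-type and 5.39 in *Sox21* KO, so this probe did not exceed the controls on either array and is given no ratio.

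**Figure D2:**
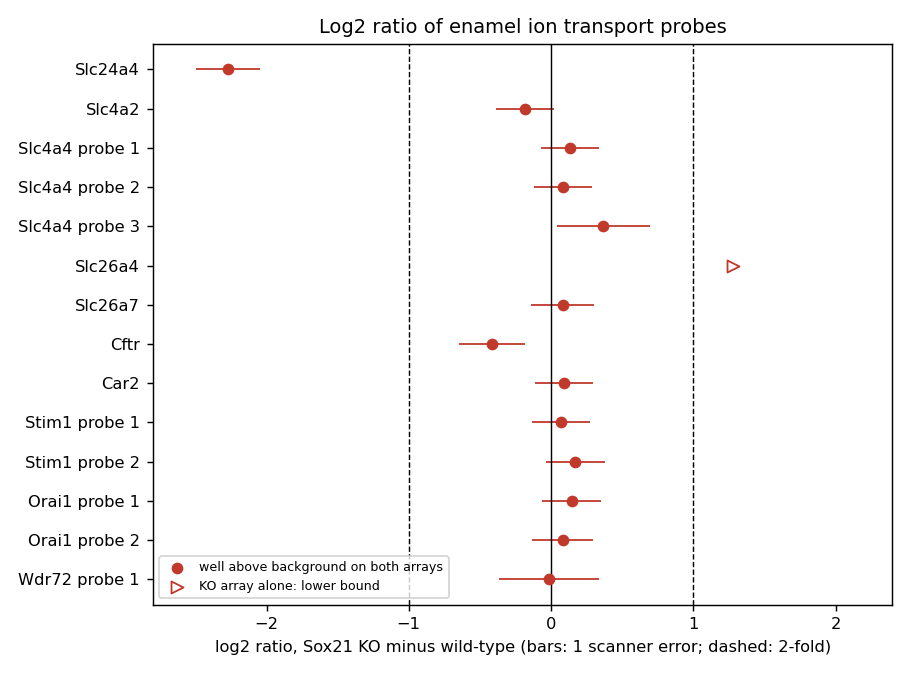
Log2 ratio (*Sox21* KO minus wild-type) of the 13 probes well above background on both arrays, with bars of 1 scanner error and dashed lines at 2-fold. *Slc24a4* lies at -2.27 and the other 12 lie between -0.42 and 0.37. The open triangle is the bound of *Slc26a4*, 2.43-fold on a log2 axis, which leaves out the scanner error. The *Wdr72* probe at the level of the controls is not drawn.

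From lowest to highest, the log2 ratios of the 9 measured genes ran from *Slc24a4* through *Cftr*, *Slc4a2*, *Wdr72*, *Stim1*, *Slc26a7*, *Car2* and *Slc4a4* to *Orai1*. Only the step from *Slc24a4* to *Cftr* was wider than the combined scanner errors of the 2 genes on either side of it. At least 2-fold lower was 1 of the 9 genes, and at least 2-fold higher were 0. Over all measured genes, 0.667% were at least 2-fold lower and 0.739% at least 2-fold higher. The median log2 ratio was 0.07 over the 9 genes and 0.01 over all measured genes, whose quartiles were -0.13 and 0.16. Of the 12 probes other than that of *Slc24a4* that were measured on both arrays, 10 were within 1 scanner error of 0. The 2 exceptions were the *Cftr* probe and the dim *Slc4a4* probe. The *Wdr72* value was -0.03 or 0.08 at the extremes of the scaling alternatives, so its sign is not fixed, and the other 8 genes kept their sign.

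**Figure D3:**
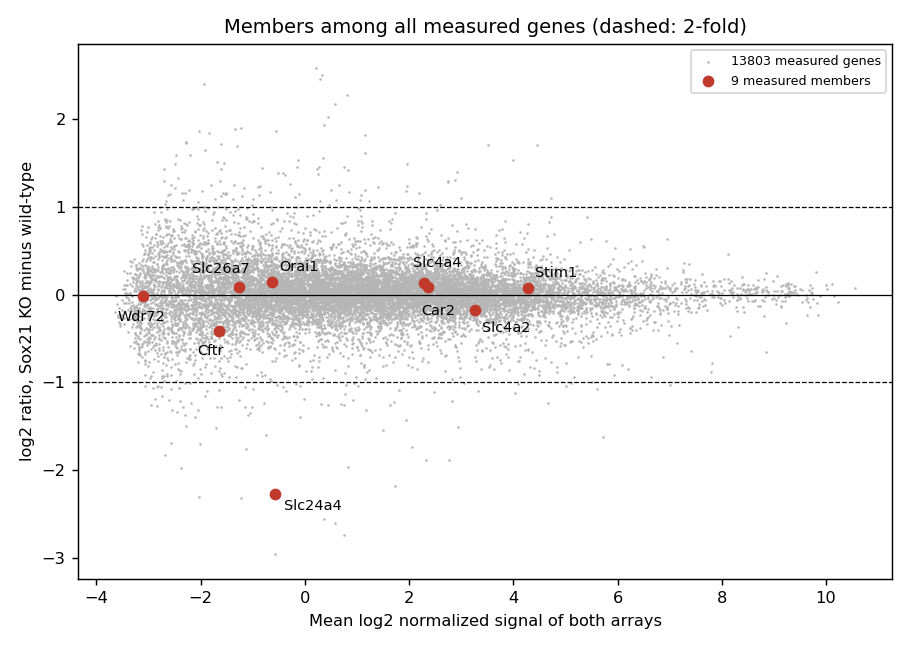
Log2 ratio (*Sox21* KO minus wild-type) against the mean log2 normalized signal of both arrays for 13803 measured genes (grey), with the 9 measured transport genes in red and dashed lines at 2-fold. Apart from *Slc24a4*, these genes lie within the dense band of genes around 0, from the dim *Wdr72* to the bright *Stim1*.

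The measured genes whose log2 ratio was nearest to that of *Slc24a4* on these 2 arrays were *Wnt16* at -2.31, *Kif5b* at -2.32, *Steap1* at -2.18, *Angptl7* at -2.40 and *1700001K23Rik* at -2.56. *Wnt16* encodes a secreted Wnt ligand, *Kif5b* a heavy chain of the motor protein kinesin and *Steap1* a membrane protein of the metalloreductase family. *Wnt16* went from a normalized signal of 0.545 to 0.110, and *Steap1* from 7.08 to 1.56. Over 2 arrays, a like ratio says only that the signals changed by a like factor.

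Other genes of ion transport were taken from lists by function, of 88 genes in all, of which 87 have a probe under the listed name and 65 were measured on both arrays. The gene without one, *Atp6v0a3*, is an older name of *Tcirg1*, which was counted with the osteoclast markers instead. At least 2-fold lower were 0 of the 65 and at least 2-fold higher was 1, *Best2*. Lower by any amount were 35 of the 65 and higher were 30, where over all measured genes 47.6% were lower. The counts by list that follow are also of differences of any size and stand beside that same 47.6%. Their median log2 ratio was -0.04, and it lay between -0.13 and 0.05 under the alternatives. At a threshold of 1.5-fold, 7 of the 65 genes (10.8%) were lower and 1 (1.54%) was higher, against 2.98% and 3.19% of all measured genes. Those 7 were *Slc26a1*, *Slc34a1*, *Slc24a3*, *Slc8a3*, *Itpr1*, *Clcn6* and *Slc20a1*. *Clcn6* has a dimmer probe with a log2 ratio of 0.08, against -0.74 at the brighter one.

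Of the calcium exchangers and pumps of the cell membrane, 7 of 9 measured genes were lower in *Sox21* KO incisor, with a median log2 ratio of -0.16. *Slc24a3*, a relative of *Slc24a4*, went from a normalized signal of 34.4 to 20.1, a log2 ratio of -0.77. *Slc8a3*, a sodium/calcium exchanger, went from 22.4 to 13.2, a log2 ratio of -0.76. The mitochondrial exchanger gene *Slc8b1* was well above background on the KO array alone, and at least 1.06-fold higher there. The relatives *Slc24a2* and *Slc24a5* had log2 ratios of -0.13 and -0.07, and *Slc24a1* did not reach the mark for background on either array.

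Among the genes of store-operated entry and of the endoplasmic reticulum calcium store, 8 of 10 were lower, with a median of -0.19. *Itpr1*, a receptor channel that releases stored calcium, went from 22.2 to 13.1, a log2 ratio of -0.76. *Orai2*, a relative of *Orai1*, had -0.36 at its brighter probe and -0.40 at the other, whereas *Orai3* had 0.14. The calcium-binding and calcium-sensing genes had 3 of 4 lower, with *Calb1*, the calcium buffer calbindin, at -0.50 and *Vdr*, the vitamin D receptor, at 0.58. The phosphate and magnesium genes had 3 lower and 3 higher, and the sodium phosphate cotransporters *Slc34a1* and *Slc20a1* had log2 ratios of -0.83 and -0.71.

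The anion exchangers and bicarbonate cotransporters had 6 of 8 lower, with a median of -0.37. *Slc26a1*, a sulfate and oxalate exchanger of the *Slc26a4* family, went from 3.11 to 1.60, a log2 ratio of -0.96. *Slc4a3* had -0.55 at its brighter probe and -0.09 at the dimmer one. The probes of *Slc4a9* disagreed, with 0.16 and -1.11. In the chloride channel list, 7 of 9 were higher, with a median of 0.16. *Best2*, a bestrophin anion channel, went from 0.522 to 2.86, a log2 ratio of 2.45 at its 1 probe. The carbonic anhydrases had 5 lower and 5 higher, with a median of -0.04 that lay between -0.15 and 0.05 under the alternatives. *Car14* had a log2 ratio of 0.41 and *Car15* of -0.33, and *Car8*, well above background on the KO array alone, was at least 1.62-fold higher there. *Car6*, a secreted carbonic anhydrase, did not reach the mark on either array. Of the proton and sodium genes, 8 of 9 were higher, with a median of 0.17, and the exception was *Atp6v0a1*, a subunit of the proton pump, at -0.57. *Tcirg1*, left out of that count, was higher too, at 0.65. *Atp1b3*, a subunit of the sodium pump, had 0.33.

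**Figure D4:**
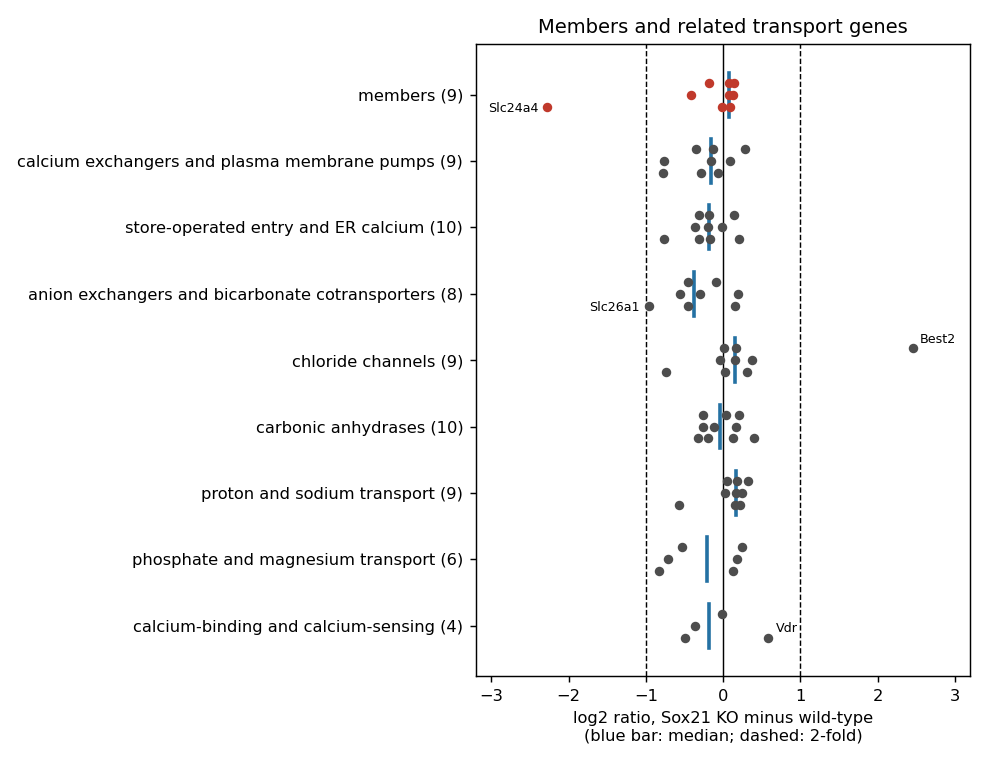
Log2 ratio (*Sox21* KO minus wild-type) of each measured gene, one point a gene, for the transport genes described first (red) and for 8 lists of related genes (grey), with the number measured in parentheses, the median as a blue bar and dashed lines at 2-fold. *Slc24a4* and *Best2* are the genes outside the dashed lines.

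Marker genes of ameloblasts and of other cells that an incisor sample holds were set beside these values. The defining secretory ameloblast genes *Amelx*, *Ambn* and *Enam* were well above background on both arrays, with log2 ratios of 0.08, -0.23 and -0.65. Of 7 secretory genes, 5 were lower and 2 higher, with a median log2 ratio of -0.23, and their summed normalized signal was 3110 in wild-type and 2826 in *Sox21* KO. Of 8 genes that mark or serve enamel maturation, 5 were lower and 3 higher, with a median of -0.86, and their sum was 231 and 189. *Amtn*, a protein of maturation ameloblasts, had a log2 ratio of -1.89. *Klk4*, the protease that clears the enamel matrix, had -1.05, whereas *Odam* had 0.63. For the other wild-type tooth germ, the study lists lower normalized values of *Amtn* and *Klk4* than those of the *Sox21* KO array here. *Slc24a4* was lower beside *Amtn* and *Klk4*, while *Cftr*, *Slc26a7*, *Car2*, *Slc4a2*, *Slc4a4* and *Wdr72* were all within 1.5-fold. Whether the number or the stage of ameloblasts in the samples had a part in the *Slc24a4* value was not tested.

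*Car2* and *Slc4a2* also serve osteoclasts, the bone-resorbing cells, which secrete acid. All 8 osteoclast markers were higher on the KO array, with log2 ratios from 0.21 to 1.36, a median of 0.56 and sums of 754 in wild-type and 937 in *Sox21* KO. The proton pump subunit *Tcirg1* and the chloride transporter *Clcn7*, which act with *Car2* in osteoclasts, had log2 ratios of 0.65 and 0.31, and *Clcn7* was picked out after its value had been seen. *Car2* is abundant in red blood cells as well, whose 4 measured markers were all lower, with a median of -0.24 and sums of 242 and 199. *Best2* was higher beside the epidermal genes, of which 4 of 4 measured were higher, with a median of 1.17 and sums of 7.83 and 16.5. The skeletal muscle list, whose cells use *Stim1* and *Orai1*, had 5 of 7 lower, a median of -0.46 and sums of 65.85 and 47.97. The part of osteoclasts, blood, epidermis or muscle in the values of *Car2*, *Slc4a2*, *Best2*, *Stim1* or *Orai1* was not tested.

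**Figure D5:**
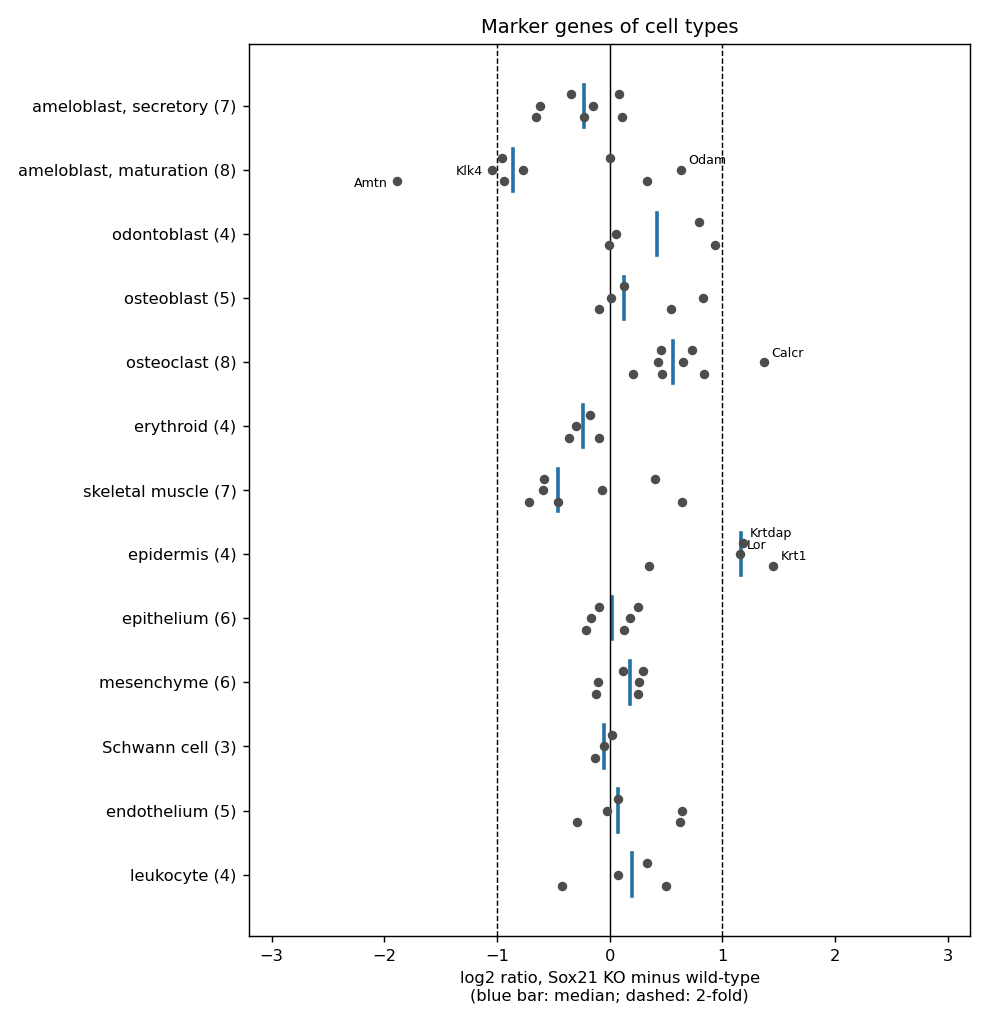
Log2 ratio (*Sox21* KO minus wild-type) of each measured marker gene, one point a gene, for 13 lists of cell types, with the number measured in parentheses, the median as a blue bar and dashed lines at 2-fold. The maturation ameloblast genes lie lowest, with a median of -0.86, and the epidermal genes highest, with a median of 1.17.

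Markers of other tissues were present on both arrays, with list medians of the log2 ratio between -0.05 and 0.42. Single measured genes of these lists ran from -0.43 for *Aif1* to 0.93 for *Dmp1*. The epithelial list had 3 of 6 lower and a median of 0.02, which lay between -0.00415 and 0.15 under the alternatives. The mesenchymal list, with the collagen gene *Col1a1* at a log2 ratio of 0.11, had a median of 0.18. The odontoblast list had a median of 0.42, the osteoblast list 0.13, the leukocyte list 0.20, the endothelial list 0.07 and the Schwann cell list -0.05, the last of which became 0.05 under a median shift. The series text names ameloblasts and whole tooth germs, whereas the sample labels name incisor. Bone, blood, muscle and mesenchymal markers were well above background on both arrays.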

How the data were processed

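RNA of 1 wild-type and 1 *Sox21* KO incisor sample was labelled with Cy3 and hybridized to Agilent SurePrint G3 mouse arrays, both on the same slide. The deposited scanner files hold, for each of 62976 spots, a processed signal intensity and its error, made by the authors with Feature Extraction 10.7.3.1, which subtracts background array by array, and the raw intensity of spot and local background. The authors also deposited a ratio per spot, the processed signal divided by 1 number per array (268 and 276), with the quotient constant to a relative difference of 2.69e-06. Each divisor equals, to 3 digits, its array's 75th percentile. Probe coordinates are those of the files (mm9), and no genome was used. All probe sequences are those of the deposited files. The study's methods also name GeneSpring for the array data, with a filter against very low signals and a percentile shift. Its version, and further tools or builds for these arrays, are not given in the sources used here.

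Here, log2 signals over the 75th percentile were averaged over the spots of a probe, without 267 spots marked as outliers on either array. Probes were named by RefSeq accession (26298), symbol (2044) or older symbol (355) of GRCm38.p6, used for names only, and 26982 kept the name in the file. Of the genes, 13803 were measured on both arrays, 274 in wild-type alone, 449 in KO alone and 6716 in neither, and 2 had a different probe measured on each array. The scanner marked 49.7% (wild-type) and 50.4% (KO) of 59305 non-control spots as well above background. Repeat spots of 274 probes differed in log2 ratio with a median SD of 0.09. For a gene seen on 1 array alone a bound was computed, its normalized signal there over the larger of its own and the other array's lowest signal that carried the mark. Such bounds leave out the scanner error.

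The named genes are the 10 members with every probe, the genes of each related list that were at least 2-fold apart or on 1 array alone and otherwise the 2 with the largest log2 ratio in size, the 5 genes nearest *Slc24a4*, and marker genes. Named beside these, after their values were seen, were *Orai3*, *Slc24a1*, *Slc24a2*, *Slc24a5*, *Slc4a9*, *Car6*, *Clcn6*, *Slc34a1* and *Clcn7* where the rule did not take them. The members and lists were chosen with earlier results of these data known. Since each genotype has 1 array, no test was run. The scaling, background correction, filter, probe choice, outlier marks, threshold and deposited values were varied in turn. The steps were tested on simulated data. The tools were limma 3.58.1 in R 4.3.3, and pandas 2.3.3 with numpy 2.4.6 in Python 3.11.15.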

Additional observations from a re-analysis of the deposited data

How the results depend on the processing

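The log2 ratios of the transport genes, the bound of *Slc26a4*, the medians of the lists and the counts over members, related genes and all genes were computed again, changing a single choice, except that the normal-exponential correction comes with an offset of 50 added to every signal. The offset draws the ratios of dim spots toward 0, and the shares of offset and correction in its values were not tested. Single genes of the other lists, second probes and *Sox21* were not recomputed, the 1.5-fold threshold was run for the 10 counts alone, and without the requirement on background *Slc26a4* has no bound. *Slc24a4* stayed at least 2-fold lower and the count of such transport genes stayed at 1 under every alternative. Its log2 ratio was -2.18 under the median shift, which raises all values by about the same amount, and -1.62 under the normal-exponential correction. The median shift also moved the median of the measured transport genes to 0.17, that of the related genes from -0.04 to 0.0522 and that of all measured genes from 0.01 to 0.11. Without the requirement on background, the count of transport genes at least 2-fold higher became 1, since *Slc26a4* entered, and the related genes had 3 at least 2-fold higher and 2 at least 2-fold lower. At 1.5-fold, 7 related genes were lower. Over all measured genes, the counts of 102 higher and 92 lower became 509 and 697 without the requirement on background, 46 and 40 under the normal-exponential correction, 441 and 412 at 1.5-fold, and 135 and 63 under the median shift. Scaling on spots other than controls, quantile normalization, outlier spots kept and the deposited ratios each moved no log2 value by more than the SD between repeat spots and no count by over 1.5 times. Under quantile normalization the counts over all genes were 111 and 84, and 3 transport genes rather than 4 were lower by any amount. Dim probes such as those of *Slc26a4* and *Wdr72* are limited by signal over background. No paired analysis was possible because each genotype has 1 array.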
